A study of Sus scrofa domesticus with 16 samples.

Results

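Cytokines, chemokines and their receptors were described in the adrenal glands of domestic pigs. Members were the genes whose symbol in the annotation of the porcine genome array begins with IL, CCL, CXCL, CCR or CXCR and a digit, or with TNFSF or TNFRSF, together with TNF, LIF, IFNG, CSF1 and CSF2. The rule found 69 of the 6765 genes that had a probe set of their own. Each gene was represented by its brightest probe set, the group of short probes that together measure a transcript. CSF1 had no such probe set in the annotation used, and probe sets that the annotation gives to IL3RA and a second gene together were not used. The 69 genes were 18 interleukins, 13 interleukin receptors or binding proteins, 19 chemokines, 7 chemokine receptors, 4 ligands and 5 receptors of the tumour necrosis factor (TNF) family, and 3 other cytokines.

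Whole adrenal tissue came from 16 pigs, with 1 array per animal. The 8 high stress pigs had been kept in a mixing treatment with high aggressiveness, and the 8 low stress pigs in one with low aggressiveness. The submitters chose the groups for their difference in fighting and in plasma cortisol, so the comparison asks how the glands of animals selected in this way differed. The sources used here do not give breed, age or sex. In whole tissue, fewer cells of a type and less RNA per cell cannot be told apart. Values are log2 signals, on which a difference of 1 is a doubling, and they depend on the probes as well as on the RNA, so probe sets of different genes were not ranked by amount.

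Cytokines are secreted proteins through which immune, endothelial and endocrine cells signal. Interleukins mostly act through paired receptor chains that start JAK-STAT or NF-kB signalling, chemokines attract cells that carry the matching G protein-coupled receptor, and TNF family ligands act on receptors that steer inflammation and cell survival. In the adrenal gland, resident macrophages and the steroid-producing cells themselves make some of these proteins, inflammatory cytokines can raise cortisol output, and cortisol in turn lowers the expression of many cytokine genes.

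Markers of adrenal and immune cell types were measured. All 8 measured cortex markers had a mean log2 signal of at least 7 (a signal of 128). STAR, the cholesterol carrier of steroid synthesis, named after its value was seen, had 14.85. Of 7 chromaffin cell markers 6 reached a log2 of 7, as did 9 of 14 myeloid cell markers and 2 of 10 T and B cell markers. Of the 6765 genes with a probe set 73.6% reached it, so these counts alone do not identify the tissue. The arrays fell into 2 sets that the labels do not mention, told apart by a spiked-in bacterial labelling control, dap. Its signal averaged 2989 in the high-spike set and 498 in the low-spike set, and 4 animals of either stress group fell in each set. The number of arrays limits the precision of all comparisons.

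A minority of the members gave a clear signal in the gland. Of the 69 genes, 25 (36.2%) reached a mean log2 of 7, against 73.6% of the 6765 genes with a probe set. In 19 of the 69 every animal reached 7, and in 37 no animal did. By role, 3 of 18 interleukins, 6 of 13 interleukin receptors or binding proteins, 10 of 19 chemokines, 1 of 7 chemokine receptors, 1 of 4 TNF ligands and 4 of 5 TNF receptors reached it. None of the other cytokines, LIF, IFNG and CSF2, did. The level depends on the probe set. A second probe set lay below 7 for IL4R at 3.27, IL1B at 4.11, TNFSF13 at 4.82, IL1R1 at 5.63 and CXCL14 at 6.87. The second probe sets of CXCL12, at 7.74, and TNFRSF12A, at 11.17, reached 7.

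**Figure D1:**
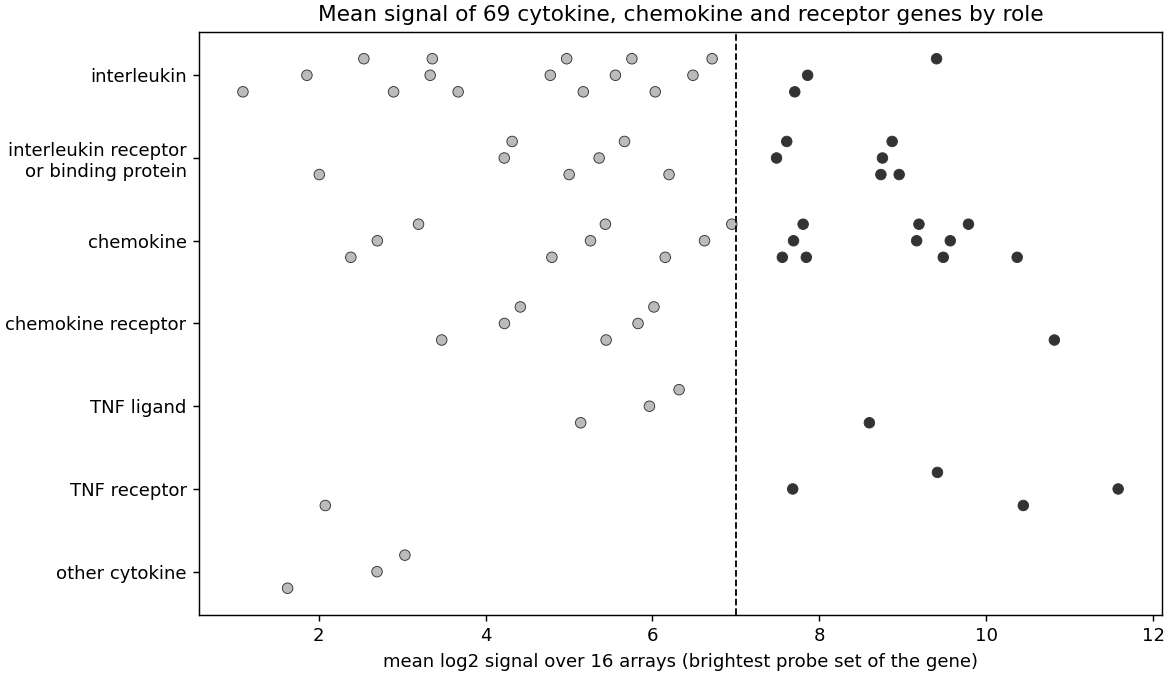
Mean log2 signal over the 16 arrays of each of the 69 genes (1 point per gene, spread vertically for legibility), by role; dark points reach the dashed line at 7. Of the chemokines 10 lie right of the line, of the chemokine receptors only CXCR4, and of the TNF receptors all but TNFRSF17.

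The interleukins that reached 7 were IL18, IL1B and IL15. IL18, which drives interferon gamma production and which in the rat is made by adrenal cortex cells, had a mean log2 signal of 9.41. IL1B, the inflammatory interleukin cleaved by caspase-1, had 7.86, and IL15, which sustains natural killer cells, had 7.71. The other interleukins lay between 1.09 for IL12B and 6.72 for IL34, a ligand of the CSF1 receptor. Among them were IL6 at 3.67, IL10 at 5.75 and IL1A at 5.17, and the products of activated T cells IL2 at 5.56, IL4 at 2.54 and IL13 at 1.86.

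The receptor chains that reached 7 were IL27RA, IL11RA, IL4R, IL10RB and IL1R1, with IL18BP, the soluble protein that binds and neutralises IL18, beside them. IL27RA, the ligand-specific chain of the IL27 receptor, had 8.96, IL11RA, the receptor for IL11, 8.87, IL4R, the chain shared by IL4 and IL13, 8.76, and IL10RB, shared by the IL10 family, 8.74. IL1R1, the signalling receptor for IL1, had 7.61 and IL18BP 7.49. Below the level were IL2RG, the common gamma chain, at 6.20, IL7R at 5.36, IL18R1, a chain of the IL18 receptor, at 4.32 and IL6R at 2.01.

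Chemokines were the role with the most genes at 7. They were CCL14 at 10.37, the neutrophil attractant CXCL2 at 9.79, CCL19, a ligand of CCR7, at 9.57, CXCL16, a membrane-bound ligand of CXCR6, at 9.49, CXCL12, the ligand of CXCR4, at 9.19 and the monocyte attractant CCL2 at 9.17. CXCL14 at 7.84, the interferon-induced CXCL9 at 7.81, CCL5 at 7.69 and CCL4 at 7.56 followed. CXCL8, the classic neutrophil attractant, had 3.20. CXCR4, which guides the homing of leukocytes and progenitor cells, had 10.82 and was the chemokine receptor that reached 7. CCR1, CCR9, CXCR6, CCR2, CCR7 and CCR3 lay between 6.02 and 3.47.

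In the TNF family the receptors TNFRSF12A at 11.58, TNFRSF1A at 10.44, TNFRSF1B at 9.42 and TNFRSF21 at 7.68 reached the level. TNFRSF12A is the receptor for TWEAK, TNFRSF1A and TNFRSF1B are both receptors for TNF, and TNFRSF21 is a death-domain receptor. TNFRSF17, a receptor of plasma cells, had 2.08. Of the ligands TNFSF13, known as APRIL, reached it at 8.60, while TNF itself had 5.14. TNFSF4, a costimulatory ligand, had 6.32 and TNFSF10, known as TRAIL, 5.96.

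The members next to the level were IL1R1 at 7.61, CCL4 at 7.56 and IL18BP at 7.49 above it, and CCL21, another ligand of CCR7, at 6.95, IL34 at 6.72 and the eosinophil attractant CCL24 at 6.62 below it. CCL21 reached 7 in 5 of 8 high stress and 3 of 8 low stress animals. CCL4 and IL18BP each reached it in 7 of 8 high stress and 7 of 8 low stress animals.

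Several members lie side by side in the pig genome, within 1 Mb of the next on the assembly Sscrofa11.1. In 1 cluster CCL14, CCL5 and CCL4 reached a log2 of 7 and CCL3L1, at 4.79, did not. In another CCL19 and IL11RA reached it, and CCL21 and CCL27, at 5.26, did not. Among neighbours that were all below 7 were IL4, IL5, IL13 and CSF2, at 1.63 to 3.34, and the receptors CCR1, CCR2, CCR3, CCR9 and CXCR6, at 3.47 to 6.02.

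Of the 69 genes, 32 passed the filter for testing, a mean log2 of at least 6.15 over all 16 arrays, among them the 25 at 7 or more. No member passed in high against low stress (limma, adjusted p under 0.05, 0% of the 14399 probe sets tested). At an unadjusted p under 0.05 there were 2 higher members, IL27RA and IL18 (6.25% of 32, against 1.27% of all probe sets), and 1 lower member, CXCR4 (3.12%, against 1.92%). In either direction these were 3 of 32 (9.38%, against 3.19%). Of the 32 members, 19 had a higher and 13 a lower mean in high stress, and 41.6% of all probe sets had a higher one. The median log2 difference was 0.04 over the 32 members and -0.03 over all probe sets tested. In all 32 members the groups overlapped; 0.0208% of all probe sets had groups that did not.

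**Figure D2:**
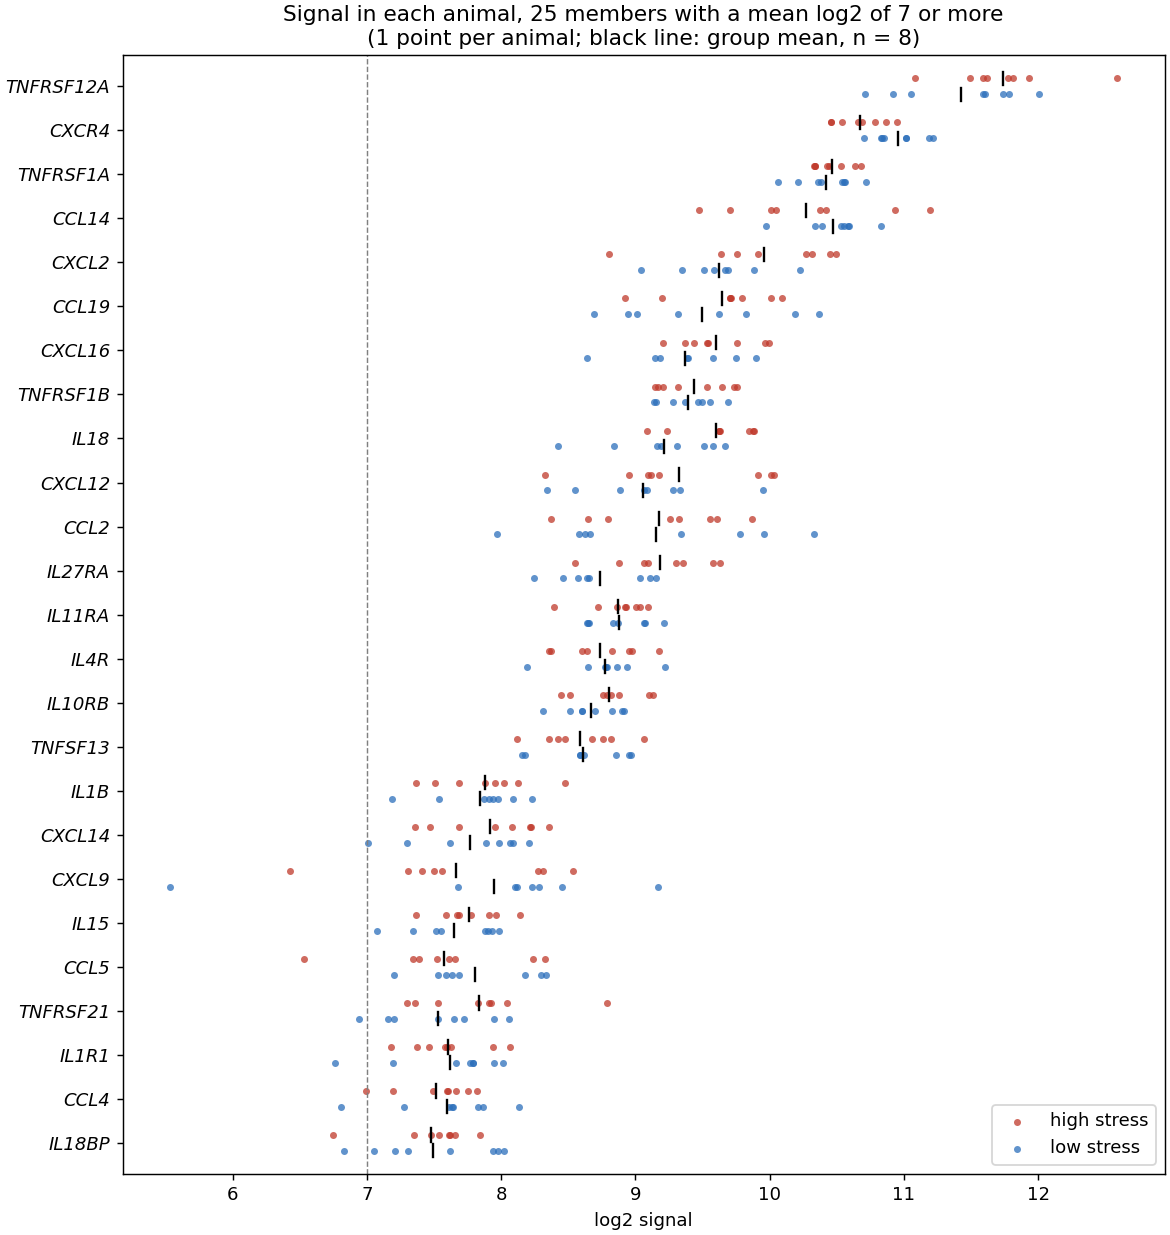
Log2 signal of the 25 genes with a mean of 7 or more in each of the 8 high stress animals (red, upper row of each gene) and 8 low stress animals (blue, lower row), with group means as black lines. The groups overlap in each gene, and the widest spread is that of CXCL9, from 5.53 to 9.17.

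IL27RA had the largest positive difference of the 32 members. Its log2 signal was 8.55 at the lowest, 9.20 at the median and 9.63 at the highest in high stress, and 8.24, 8.65 and 9.15 in low stress. Of the high stress animals 7 of 8 lay above the low stress mean, but the low stress animals with the highest values lay within the high stress range. High stress animals averaged 9.18 ± 0.36 and low stress animals 8.73 ± 0.33 (SD, n = 8 each), a 1.36-fold difference. The log2 difference was 0.45 (95% confidence interval 0.09 to 0.80; limma, unadjusted p = 0.0162, adjusted p = 0.999). It was 0.35 within the high-spike set and 0.55 within the low-spike set.

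IL18 ranged from 9.09 to 9.88 with a median of 9.62 in high stress, and from 8.42 to 9.66 with a median of 9.25 in low stress. High stress glands averaged 9.60 ± 0.30 and low stress glands 9.21 ± 0.41 (SD, n = 8 each), a 1.31-fold difference. The log2 difference was 0.39 (95% confidence interval 0.02 to 0.76; limma, unadjusted p = 0.0381, adjusted p = 0.999). Leaving out 1 animal moved the unadjusted p above 0.05 for 10 of the 16 animals, to at most 0.0844. With the leading digit of the animals' numbers as a block it was 0.0537. The difference was small in 1 of the sets. Within the high-spike set it was 0.07, and the animals had 9.62, 9.62, 9.84 and 9.24 in high stress and 9.58, 9.66, 9.31 and 9.51 in low stress. Within the low-spike set it was 0.71, with 9.63, 9.09, 9.88 and 9.88 in high stress and 8.42, 9.16, 9.19 and 8.84 in low stress. The difference between the sets was -0.65 (limma interaction, unadjusted p = 0.0386, adjusted p = 1). IL18BP averaged 7.48 in high stress animals and 7.49 in low stress animals, a log2 difference of -0.01 (95% confidence interval -0.42 to 0.39) that was 0.09 without high stress replicate 1. Whether the differences of IL18 and IL18BP differ from each other was not tested.

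CXCR4 was the member with the smallest unadjusted p. It ranged from 10.46 to 10.95 with a median of 10.67 in high stress, and from 10.70 to 11.22 with a median of 10.94 in low stress. All 8 high stress animals lay below the low stress mean, although the ranges overlapped between 10.70 and 10.95. The mean was 10.68 ± 0.18 for high stress and 10.96 ± 0.18 for low stress (SD, n = 8 each), so the high stress level was 0.822 of the low stress level. The log2 difference was -0.28 (95% confidence interval -0.50 to -0.06; limma, unadjusted p = 0.0149, adjusted p = 0.999), and -0.28 within the high-spike and -0.29 within the low-spike set. With each array centred on its median the difference was -0.21 (unadjusted p = 0.0991). CXCL12, its ligand, had a log2 difference of 0.27 (95% confidence interval -0.27 to 0.81), -0.15 within the high-spike set and 0.68 within the low-spike set. Its second probe set, with a mean of 7.74, had 0.15 (SE 0.23).

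**Figure D3:**
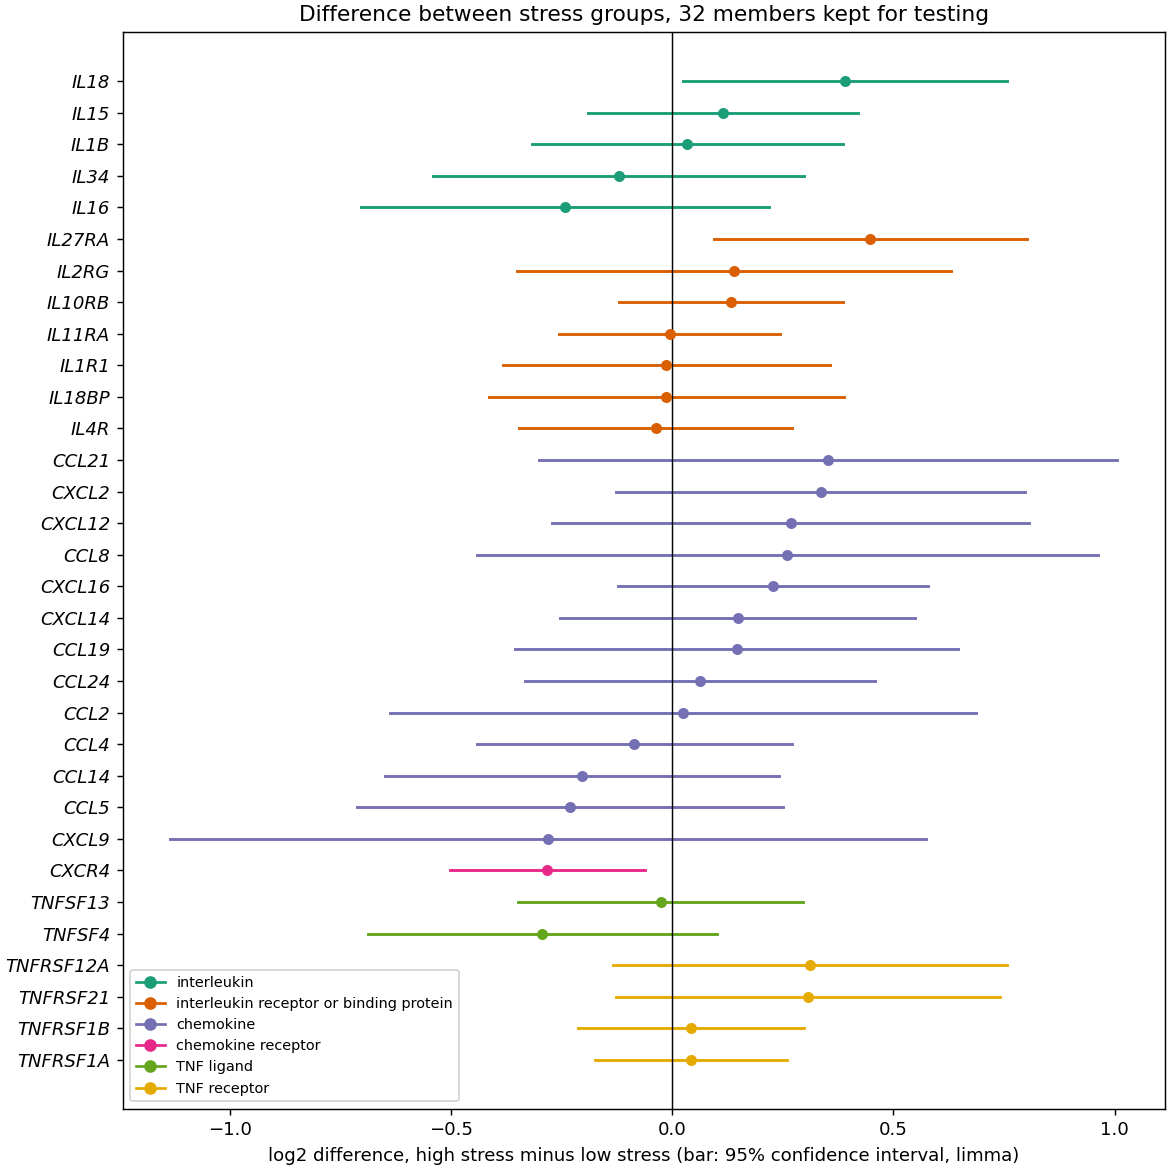
Log2 difference of high stress minus low stress for the 32 members tested, with 95% confidence intervals from limma, ordered by role. The intervals of IL18 and IL27RA lie above 0 and that of CXCR4 below 0, the other 29 include 0, and no member passed after adjustment.

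Among the chemokines 9 of the 13 tested had a higher and 4 a lower mean in high stress, and none had an unadjusted p under 0.05. CXCL2 ranged from 8.81 to 10.49 with a median of 10.09 in high stress, and from 9.04 to 10.22 with a median of 9.63 in low stress. Its log2 difference was 0.34 (SE 0.22), close to equal within the high-spike set at 0.34 and the low-spike set at 0.33. High stress animals lay on both sides of the low stress range. Without high stress replicate 6, at 8.81, the difference was 0.50 (limma, unadjusted p = 0.0109, adjusted p = 1). CXCL16 ranged from 9.21 to 9.996 with a median of 9.53 in high stress, and from 8.64 to 9.90 with a median of 9.39 in low stress (log2 difference 0.23, SE 0.17), and the difference was 0.12 without low stress replicate 6, at 8.64. CCL19 had medians of 9.71 in high stress and 9.47 in low stress, over 8.92 to 10.09 and 8.69 to 10.37 (0.15, SE 0.24). With 1 animal left out the CCL19 difference lay between 0.03, without low stress replicate 4, and 0.27, without low stress replicate 2. CCL14 was more spread in high stress, at 9.47 to 11.19 with a median of 10.21, than in low stress, at 9.98 to 10.83 with a median of 10.54 (-0.20, SE 0.21; the difference in spread was not tested). The CCL14 difference was -0.09 without high stress replicate 7, -0.12 without high stress replicate 4 and -0.34 without high stress replicate 6.

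CXCL9 and CCL5, both attractants of T cells, had lower means in high stress, with wide intervals. CXCL9 ranged from 6.42 to 8.53 with a median of 7.53 in high stress, and from 5.53 to 9.17 with a median of 8.17 in low stress. The log2 difference was -0.28 (95% confidence interval -1.14 to 0.57), 0.10 within the high-spike set and -0.66 within the low-spike set. Without low stress replicate 3, at 5.53, it was -0.63 (limma, unadjusted p = 0.0406, adjusted p = 0.999). Without high stress replicate 7, at 6.42, it was -0.10, and without low stress replicate 5, at 9.17, it was -0.11. CCL5 ranged from 6.53 to 8.32 with a median of 7.57 in high stress, and from 7.20 to 8.33 with a median of 7.66 in low stress. Its log2 difference was -0.23 (SE 0.23), and -0.08 without high stress replicate 7, at 6.53; within the sets it was 0.12 in the high-spike and -0.58 in the low-spike set. High stress replicate 7 also had the lowest CXCL9 value of its group. Over 10 T and B cell markers the mean log2 signal ranged from 5.22 to 6.52 in high stress animals. In low stress animals it ranged from 5.62 to 6.58. The filter for testing kept 4 of the 10, so markers below it entered this mean. Single markers had means from 3.63 for CD4 to 9.56 for CD247, both named after their values were seen. CD3D had 6.71 and CD8A 6.49. The part of these markers in the CXCL9 and CCL5 values was not tested.

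The remaining chemokines lay between. CCL2 had a log2 difference of 0.02 (95% confidence interval -0.64 to 0.69). CCL21 had the highest upper limit of the 32 members, with a difference of 0.35 (95% confidence interval -0.30 to 1.01), 0.90 within the high-spike set and -0.19 within the low-spike set. CCL8, a monocyte attractant near the filter value, had 0.26 (SE 0.33), CXCL14 0.15 (SE 0.19), CCL24 0.06 (SE 0.19) and CCL4 -0.09 (SE 0.17). A second probe set of CXCL14, with a mean of 6.87, had -0.30 (SE 0.20), so the probe sets of this gene differed in sign and neither passed.

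All 4 TNF receptors tested had a higher mean in high stress, and none had an unadjusted p under 0.05. TNFRSF12A ranged from 11.08 to 12.59 with a median of 11.70 in high stress, and from 10.71 to 12.01 with a median of 11.60 in low stress. Its log2 difference was 0.31 (SE 0.21), and its second probe set, with a mean of 11.17, gave 0.27 (SE 0.19). Within the sets it was 0.42 in the high-spike set and 0.20 in the low-spike set, and without high stress replicate 8, at 12.59, it was 0.19. TNFRSF21 ranged from 7.30 to 8.79 with a median of 7.87 in high stress, and from 6.94 to 8.06 with a median of 7.59 in low stress (0.31, SE 0.21). Without high stress replicate 6, at 8.79, the TNFRSF21 difference was 0.17. The receptors for TNF itself had narrower intervals. TNFRSF1A had medians of 10.44 in high stress, over 10.33 to 10.68, and 10.46 in low stress, over 10.06 to 10.72 (log2 difference 0.04, 95% confidence interval -0.17 to 0.26). TNFRSF1B had medians of 9.42 in high stress, over 9.15 to 9.75, and 9.42 in low stress, over 9.14 to 9.69 (0.04, 95% confidence interval -0.21 to 0.30). Both differences took the opposite sign when 1 animal was left out, TNFRSF1A without low stress replicate 3 and TNFRSF1B without high stress replicate 1. Both TNF ligands tested had lower means in high stress. TNFSF4 ranged from 5.62 to 6.996 with a median of 6.13 in high stress, and from 6.11 to 6.99 with a median of 6.37 in low stress (-0.29, SE 0.19), and 7 of 8 high stress animals lay below the low stress mean. TNFSF13 had -0.03 (SE 0.15). Its second probe set, below the filter at 4.82, had -0.43 (SE 0.38) in a fit without the filter.

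Of the other interleukins, IL16, a chemoattractant of T cells, ranged from 5.32 to 6.89 with a median of 6.40 in high stress, and from 5.79 to 7.12 with a median of 6.75 in low stress. Its log2 difference of -0.24 (SE 0.22) was -0.09 without high stress replicate 4, at 5.32. IL15 had 0.11 (SE 0.14), IL1B 0.03 (SE 0.17) and IL34 -0.12 (SE 0.20). Among the receptor chains IL10RB had 0.13 (SE 0.12), IL2RG 0.14 (SE 0.23), IL4R -0.04 (SE 0.15), IL1R1 -0.01 (SE 0.18) and IL11RA -0.01 (SE 0.12). The second probe sets of IL1B, IL1R1 and IL4R lay below the filter. In a fit without it they had 0.65 (SE 0.43), -0.26 (SE 0.34) and 0.05 (SE 0.31), in the same order. The confidence intervals of 20 of the 32 members still reached a log2 difference of 0.5 in one direction or the other, so differences of that size were not excluded for them.

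The 37 members below the filter had values of no clear height. Their median within-group SD was 1.03 on the log2 scale, against 0.40 for the 32 members tested and 0.33 for all probe sets tested. In a fit without the filter none of the 69 passed (limma, adjusted p under 0.05), and of the 37 the only one with an unadjusted p under 0.05 was IL2, the T cell growth factor (2.70%, against 3.78% of all 23999 probe sets). IL2, named here after its value was seen, averaged 5.21 ± 0.60 among high stress and 5.90 ± 0.39 among low stress animals (SD, n = 8 each), both below the filter value. IL6, also named after its value was seen, averaged 4.38 ± 1.56 among high stress and 2.96 ± 1.32 among low stress animals (SD, n = 8 each). Its values covered 0.87 to 5.91 in high stress and 0.69 to 4.57 in low stress, and its unadjusted limma p without the filter was 0.0545.

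Among the 32 members tested, the 6 with the widest spread within the stress groups were chemokines. With 1 array per animal this spread holds differences between the spike-in sets and between arrays as well as between animals. The within-group SD was above 0.5 in 6 of the 32, namely CXCL9 at 0.90, CCL8 at 0.73, CCL2 at 0.69, CCL21 at 0.68, CXCL12 at 0.55 and CCL19 at 0.51, and in 19.7% of all probe sets tested. It was lowest in TNFRSF1A and CXCR4, both at 0.18. No single animal held the extremes of the 25 genes at 7 or more. High stress replicate 6 was the highest of all animals in 5 of the 25 and low stress replicate 2 in 4, while low stress replicate 3 was the lowest in 7.

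Some members differed between the spike-in sets, in a fit with stress group as a covariate. Of the 32 tested, 4 passed (12.5%; limma, adjusted p under 0.05), against 40.1% of all probe sets. IL1R1 averaged 7.84 in the high-spike set and 7.38 in the low-spike set (log2 difference 0.47, adjusted p = 0.0109). The others were lower in the high-spike set. TNFRSF12A averaged 11.28 in the high-spike and 11.88 in the low-spike set (-0.60, adjusted p = 0.00639), TNFSF13 8.36 and 8.84 (-0.47, adjusted p = 0.00151), and CXCL16 9.26 and 9.71 (-0.45, adjusted p = 0.00889), in the same order. After quantile normalization 8 of 31 members passed, against 41.9% of all probe sets. Under both settings the members' share stayed below that of all probe sets.

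With the set as a block in the stress comparison no member passed (limma, adjusted p under 0.05, 0.00694% of all probe sets), and the smallest adjusted p of a member was 0.682, that of IL27RA. The members with an unadjusted p under 0.05 were again IL27RA and IL18 (6.25%, against 2.37% of all probe sets) and CXCR4 (3.12%, against 4.01%). The stress difference did not differ between the sets in any member after adjustment (limma interaction, 0% of all probe sets). At an unadjusted p under 0.05 there were 3 of 32 (9.38%, against 2.92%), IL18 and the pair IL10RB and CCL24, named after their values were seen. IL10RB had a log2 difference of 0.37 within the high-spike set, where its values were 8.87, 9.13, 8.79 and 9.10 in high stress and 8.60, 8.70, 8.51 and 8.60 in low stress, and of -0.10 within the low-spike set. CCL24 had 0.50 within the high-spike and -0.38 within the low-spike set.

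**Figure D4:**
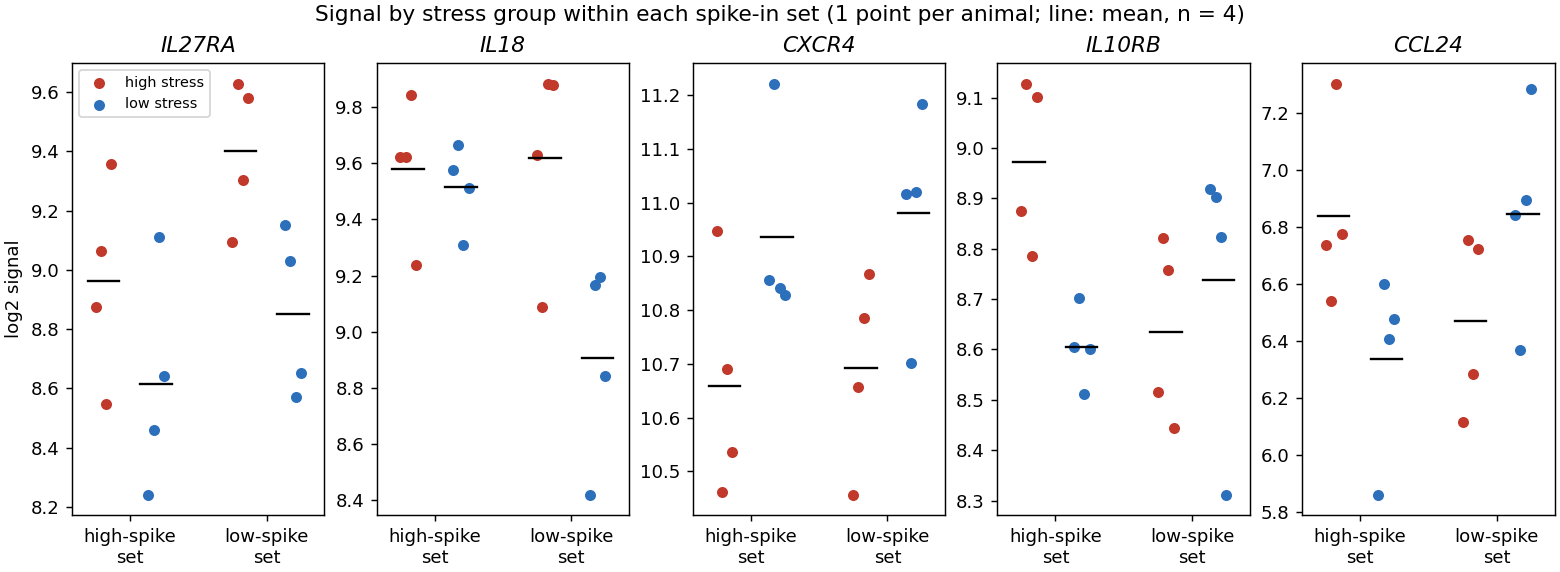
Log2 signal of 5 members in high stress (red) and low stress (blue) animals within the high-spike and the low-spike set (4 animals each, line at the mean; each panel has its own axis). CXCR4 differs by -0.28 and -0.29 in the sets in this order, IL18 by 0.07 and 0.71.

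Ligands and their own receptors or binding proteins, where both reached 7, did not vary together detectably over the 16 animals. The 3 such pairs were CXCL12 with CXCR4, IL1B with IL1R1 and IL18 with IL18BP. For CXCL12 and CXCR4 Pearson's r was 0.08 (permutation p = 0.757, adjusted 0.981) and Spearman's rho -0.02 (permutation p = 0.954, adjusted 0.954), with r 0.46 within the high-spike and -0.32 within the low-spike set, and 0.22 without the 2 animals farthest from the median of CXCL12. For IL18 and IL18BP r was -0.01 (permutation p = 0.981, adjusted 0.981) and rho -0.03 (permutation p = 0.926, adjusted 0.954), with -0.33 and -0.23 within the sets in the same order and 0.00 without the 2 animals farthest in IL18. For IL1B and IL1R1 r was -0.44 (permutation p = 0.0893, adjusted 0.268) and rho -0.43 (permutation p = 0.0994, adjusted 0.298). For this pair r was -0.18 without the 2 animals farthest in IL1B, -0.33 within the high-spike set and 0.06 within the low-spike set. Each set holds 8 animals, and whether r depends on the sets or on single animals was not tested. All tests were two-sided.

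The signalling genes downstream of these receptors gave no calls (limma, adjusted p under 0.05), as held for all 14399 probe sets tested. Of 34 NF-kB signalling genes listed, 14 were measured and 11 tested. Of these 8 had a higher and 3 a lower mean in high stress, the median log2 difference was 0.12, and none had an unadjusted p under 0.05. IRAK1, a kinase below the IL1 and IL18 receptors, had 0.17 (SE 0.09), and FADD, the adaptor of death receptors, 0.24 (SE 0.14). Of 26 JAK-STAT signalling genes 17 were measured and 13 tested, 3 with a higher and 10 with a lower mean and a median of -0.04. Here the kinase TYK2 had -0.08 (SE 0.10) and the transcription factor STAT2 -0.06 (SE 0.09). None of the 13 had an unadjusted p under 0.05, against 3.19% of all probe sets. Of all probe sets 41.6% had a higher mean in high stress, with a median of -0.03.

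Of 51 further cytokine and receptor genes listed whose symbols fall outside the rule, 20 were measured and 12 tested. Of the 20, 8 reached a mean log2 of 7, and levels ran from 2.34 for FASLG to 13.88 for MIF. AMCF-II had 10.87. These 3 genes were named after their values were seen. In this list 3 had a higher and 9 a lower mean in high stress, with a median of -0.02. None had an unadjusted p under 0.05, against 3.19% of all probe sets. A higher mean was held by 41.6% of all probe sets, whose median was -0.03. IFNA1, a type I interferon, had -0.42 (SE 0.21), from means of 6.71 in high stress and 7.13 in low stress. CCRL2, a receptor-like protein that binds chemerin, had 0.22 (SE 0.16).

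The means of the marker lists overlapped between the groups, and 0.0208% of all single probe sets had groups that did not overlap. The mean log2 signal of 14 myeloid cell markers was 7.50 to 7.99 in high stress and 7.55 to 8.24 in low stress animals, that of 10 endothelial cell markers 8.25 to 8.58 and 8.19 to 8.63, and that of 7 fibroblast and capsule markers 8.24 to 9.24 and 8.60 to 9.45, in the same order. For 3 haemoglobin and red cell genes it was 6.28 to 7.51 in high stress and 5.96 to 7.36 in low stress. The filter for testing kept 11 of the 14 myeloid, 8 of the 10 endothelial, 6 of the 7 fibroblast and capsule and 2 of the 3 red cell genes. It kept 4 of 10 T and B cell, 8 of 8 cortex and 6 of 7 chromaffin markers. None of the genes kept in these lists had an unadjusted p under 0.05 in limma, against 3.19% of all probe sets. Of the kept myeloid markers 3 had a higher and 8 a lower mean in high stress (median log2 difference -0.12). Counts were 3 and 5 for endothelial (-0.08), 3 and 3 for fibroblast and capsule (-0.04) and 1 and 1 for red cell genes (-0.03). They were 3 and 1 for T and B cell (0.10), 4 and 4 for cortex (0.01) and 5 and 1 for chromaffin markers (0.03). Over all probe sets 41.6% had a higher mean (median -0.03). The part of these markers in the values of the cytokine genes was not tested.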

How the data were processed

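Gene expression was measured in adrenal glands of 16 pigs (8 high stress, 8 low stress) on the Affymetrix GeneChip Porcine Genome Array. The deposited values are linear intensity values; per the submitters' processing notes they are MAS5 signals from Affymetrix Expression Console 1.1.1. Scans and detection calls were left aside, and the analysis ran on log2 signals. Leaving out 124 controls gave 23999 probe sets, 10069 of them with 1 gene symbol; all 69 members matched a RefSeq gene number and kept their symbol. No column was left unused (0).

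Probe sets under the 40th percentile of mean log2 signal (6.15) were left out. The stress groups were tested two-sided in limma 3.58.1 (lmFit and eBayes, under R 4.3.3), with Benjamini-Hochberg adjustment over 14399 probe sets. The spike-in sets were split at the largest gap in the signal of 3 dap probe sets. Correlations used 100000 permutations. Members, lists and alternatives were chosen with earlier results of these data known. By rule, group values are given for the 8 brightest members and the 6 with the smallest p in each direction. Members next to log2 7 and the 2 genes of each list with the smallest p are also named. Other members are given by level or difference alone. Genes outside this naming rule are marked in the text as picked afterwards. On simulated data for high against low stress (14399 probe sets, 5 simulations with 200 changed each), 33.4% of log2 changes of 0.5, 77.9% of 1 and 95.2% of 1.5 were recovered, with 0.0549% of unchanged probe sets called. The simulated errors were normal and independent, with no shift shared by the arrays of a spike-in set. Recovery was taken over all probe sets tested, whose median within-group SD was 0.33, against 0.40 for the members. Figures were drawn with matplotlib 3.10.9.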

Additional observations from a re-analysis of the deposited data

Results flagged for a closer look

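In 3 of the 64 groups of values examined (32 members in 2 stress groups), 1 animal lay far from the other 7 by Dixon's ratio at the 95% level, close to the 1 in 20 that chance gives. CXCL9 was 5.53 in low stress replicate 3, against 7.68 to 9.17 in the others of its group. Without this animal the log2 difference of high minus low stress was -0.63, against -0.28 with it and -0.10 without high stress replicate 7. IL16 was 5.32 in high stress replicate 4, against 6.35 to 6.89 in the others, and without it the difference was -0.09, against -0.24. IL18BP was 6.75 in high stress replicate 1, against 7.35 to 7.84 in the others, and without it the difference was 0.09, against -0.01.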

How the results depend on the processing

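No member passed limma at an adjusted p under 0.05 in high against low stress under any of the 10 alternatives or without any 1 of the 16 animals (0 to 0 members). The number with an unadjusted p under 0.05, 3 in the fit reported, was 2 to 4 when an animal was left out and 2 to 4 under the alternatives. Centring on the median lost CXCR4 (unadjusted p = 0.0991), and a block on the leading digit of the animals' numbers lost IL18 (unadjusted p = 0.0537). The median log2 difference of the members lay between 0.02 and 0.12 under the alternatives and between 0.01 and 0.09 with an animal left out. IL18 was 0.28 to 0.46 with an animal left out (unadjusted p 0.0154 to 0.0844, highest without low stress replicate 2). TNFSF4 had an unadjusted p of 0.0239 without high stress replicate 1. IL27RA was 0.38 to 0.54 and CXCR4 -0.32 to -0.25. TNFRSF1A was -0.0092 without low stress replicate 3 (-0.0092 to 0.084) and TNFRSF1B -0.0026 without high stress replicate 1 (-0.0026 to 0.085). STAT2 became 0.00964 with centring on the median, and IRAK1 -0.10 with the mean of its probe sets. The chromaffin gene PNMT was -0.062 to 0.14, below 0 without each of 5 animals. Members at log2 7 numbered 25, and 16 reached a level of 8. Members that differed between the spike-in sets numbered 4 (40.1% of all probe sets passed), and 8 after quantile normalization (41.9%). Calls over all 14399 probe sets tested split 183 higher and 277 lower at an unadjusted p under 0.05 in limma. They split 240 and 183 after quantile normalization, and 318 and 126 with centring on the median. With signals averaged within each gene, 5165 genes were tested, and 91 were higher and 82 lower at that p. No paired analysis was run, because the labels name no pairs of animals. Each leading digit of the animals' numbers held 1 high and 1 low stress animal in each spike-in set. The labels do not say what the digit stands for. Signals near background limit the members below the filter.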
